A study of Solanum lycopersicum with 10 samples.

Results

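Of the 35288 genes in the tomato tables, 9 are described here, the MADS-box transcription factors RIN (Solyc05g012020), TAGL1 (Solyc07g055920), FUL1 (Solyc06g069430), FUL2 (Solyc03g114830), MADS1 (Solyc03g114840), TAG1 (Solyc02g071730), TAGL11 (Solyc11g028020), MC (Solyc05g056620) and JOINTLESS (Solyc11g010570). They were chosen by name and identifier as MADS-box regulators of fruit development and ripening, and all 9 were found in both tables. RNA-seq was run on 5 tissues of wild-type tomato of the cultivar Ailsa Craig (AC, spelled Alisa Craig in the sample labels), from plants about 3 months old. The tissues were the exocarp (outer skin) and the mesocarp (the flesh under it) of mature green and of red ripe fruits, and leaves, for which the study pooled material of the 2 fruit stages. There were 2 biological replicates of each tissue, and no plant carried a transgene in this experiment.

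MADS-box proteins bind DNA as dimers and larger complexes, so that the set of members present in a tissue shapes which complexes can form. In tomato, RIN, a SEPALLATA-type factor, is needed for normal ripening and forms complexes with the FRUITFULL homologues FUL1 and FUL2 and the AGAMOUS-lineage factor TAGL1. TAG1 acts in stamen and carpel identity, TAGL11 in ovule and seed development, MADS1 has been described as a repressor of ripening, MC acts in sepal and inflorescence development, and JOINTLESS is needed for the abscission zone of the flower stalk.

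The files give no gene names. The RefSeq table (assembly SLM_r2.1) has 1 entry for each of the 9 names, 4 of them under another symbol (AG1 for TAG1, AGL11 for TAGL11, MADS-MC for MC and J for JOINTLESS), but 0 of its 41476 entries hold a Solyc identifier, so the pairing of name and identifier was taken as given. In that table FUL2 and MADS1 are direct neighbours, as their consecutive identifiers are here, and MADS-MC lies beside RIN with a joined RIN and MC gene model between them. The identifiers given for RIN and MC are not consecutive, so the values under the name MC below belong to Solyc05g056620, and whether it is that neighbour of RIN could not be checked.

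Total counts per library ran from 30945619 to 45637676. Levels of 1 gene across tissues are given as TMM-normalized CPM (library-scaled counts after edgeR's correction for composition, with factors from 0.881 to 1.21), and levels of different genes as FPKM, which also divides by transcript length. The leaf markers, 3 small-subunit Rubisco genes, summed to between 17134 and 17235 FPKM in leaf and to between 32.7 and 1045 in the fruit libraries. The exocarp markers, of which 3 of 4 were in the files, summed to between 2061 and 2625 FPKM in green exocarp against 62.7 to 66.3 in green mesocarp, and to between 338 and 423 in red exocarp against 9.63 to 10.1 in red mesocarp. In leaf they summed to between 208 and 211 FPKM. Most of the green exocarp sum came from Solyc11g006250, with mean FPKM of 1799 there, 0.64 in red exocarp and 29.4 in leaf. The 3 ripe-fruit markers summed to at least 20057 FPKM in every red fruit library and to at most 192 elsewhere. Replicate libraries were less alike than counting noise allows, above all in green exocarp, where 3.59% of the genes over 10 CPM differed at least 2-fold. Scaling by total counts in place of TMM moved the median of all genes by −0.28 (log2) for red against green exocarp, −0.39 for red against green mesocarp, −0.11 for green exocarp against green mesocarp, 0.26 for green exocarp against leaf and 0.39 for green mesocarp against leaf. The share of called genes that were higher then went from 48.0% to 33.8%, from 47.0% to 27.8%, from 47.8% to 36.5%, from 48.8% to 58.5% and from 47.8% to 61.9%, in the same order.

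RIN and FUL1 made up most of the summed level of these 9 genes in ripe fruit. The summed FPKM of the 9 genes was 631 in green exocarp, 550 in green mesocarp, 3048 in red exocarp, 1546 in red mesocarp and 117 in leaf. FUL1 held 58.5% of that sum in red exocarp and RIN held 24.8%. In red mesocarp the shares were 45.4% for FUL1 and 25.1% for RIN. In green exocarp the largest share was that of FUL2, at 25.1%, while RIN held 0.41%. FUL1 also made up 83.4% of the small leaf sum.

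**Figure D1:**
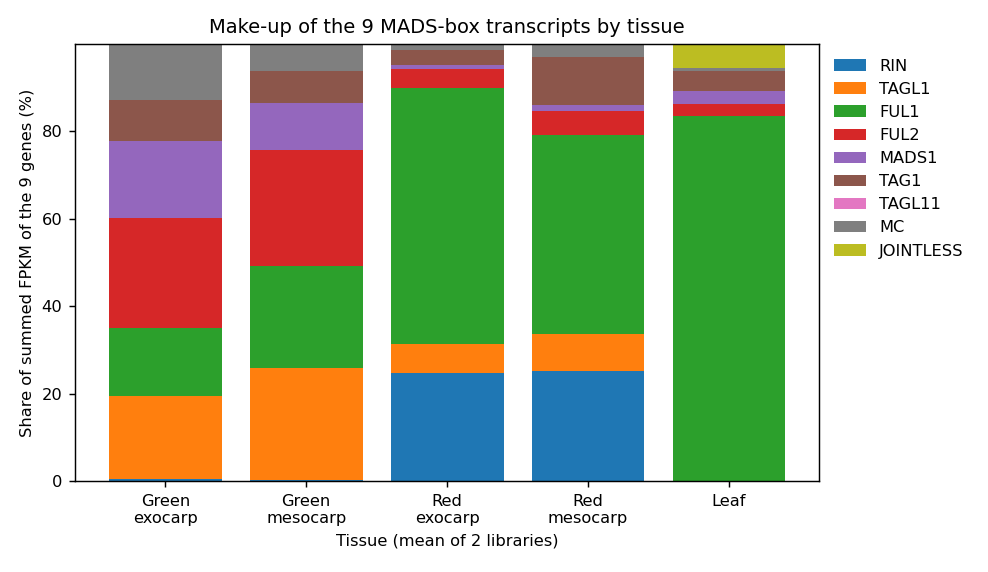
Share of the summed FPKM of the 9 genes (vertical axis, percent) in each tissue, as the mean of 2 libraries. FUL1 and RIN fill most of the red fruit bars, the green fruit bars are spread over FUL2, TAGL1, FUL1 and MADS1, and FUL1 holds 83.4% of the leaf bar.

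RIN was low in green fruit and abundant in red fruit. Its TMM-normalized CPM was 1499 and 1588 in red exocarp, 772 and 792 in red mesocarp, 4.2 and 4.28 in green exocarp, 0.92 and 4.21 in green mesocarp, and 0.16 and 0.37 in leaf. Every red fruit library lay above every green fruit library, and the green exocarp and mesocarp libraries overlapped. By FPKM, RIN ranked 71 and 73 among the 35288 genes in the red exocarp libraries, and between 15196 and 18702 in the green fruit libraries. The log2 fold change from green to red was 8.51 (SE 0.53) in exocarp and 8.25 (SE 0.53) in mesocarp, with adjusted p-values of 1.9e-06 and 2.9e-06 (quasi-likelihood F test of edgeR, Benjamini-Hochberg adjusted over the 22801 genes tested). The mesocarp value was 7.54 without green mesocarp replicate 1 and 9.72 without replicate 2, with adjusted p-values of 2.7e-06 and 1.85e-06. Fewer cells with a transcript and less of it per cell cannot be told apart in these bulk samples.

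The red exocarp held 1.97 times the RIN level of the red mesocarp, and the libraries did not overlap. That layer difference did not pass the test (log2 fold change 0.98, SE 0.37, edgeR adjusted p = 0.0726). It passed in a fit of the compared tissues alone (0.98, edgeR adjusted p = 9.72e-06) and in limma on log2(FPKM + 1) (0.96, adjusted p = 0.0496). In the other 6 of the 8 alternative settings it did not pass. With 1 red fruit library left out the log2 fold change was 0.94 to 1.02. In green fruit the exocarp value relative to the mesocarp (log2 fold change 0.72, SE 0.48, edgeR adjusted p = 0.281) rested on 1 library. Without green mesocarp replicate 1 it was 0.0083, and without green mesocarp replicate 2 it was 2.19 with an adjusted p of 0.000869.

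FUL1, a FRUITFULL homologue, was the most abundant of the 9 transcripts in both red tissues. Its CPM was 2457 and 2552 in red exocarp, 982 and 966 in red mesocarp, 121 and 99.8 in green exocarp, 132 and 134 in green mesocarp, and 134 and 137 in leaf. The red libraries stood apart from all others, whereas green fruit and leaf lay close together. FUL1 rose by 4.50 (log2, SE 0.11, edgeR adjusted p = 2.23e-08) with ripening in exocarp and by 2.87 (SE 0.10, adjusted p = 1.42e-07) in mesocarp. The red exocarp level was 2.57 times that of red mesocarp (log2 fold change 1.36, SE 0.10, edgeR adjusted p = 2.29e-05). In green fruit the order was the other way, at −0.27 (SE 0.10), which did not pass with TMM (edgeR adjusted p = 0.0622). In edgeR it passed with DESeq2 size factors (−0.29, adjusted p = 0.0435) and with total counts (−0.39, adjusted p = 0.0195). It also passed in DESeq2 (−0.29, adjusted p = 0.00625) and in limma on log2(FPKM + 1) and log2(FPKM + 0.1) (−0.39 in both, adjusted p = 0.0143 and 0.0161). In the other 3 of the 8 settings it did not pass.

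FUL2, the close homologue of FUL1, did not rise with ripening in either layer. Its CPM was 206 and 224 in green exocarp, 189 and 175 in green mesocarp, 212 and 233 in red exocarp, 142 and 147 in red mesocarp, and 5.24 and 5.18 in leaf. The green and red exocarp libraries overlapped, and both red mesocarp libraries lay under all other fruit libraries. The exocarp change with ripening was 0.05 (log2, SE 0.08, edgeR adjusted p = 0.638), but with total counts it was −0.27 (adjusted p = 0.0109), so its direction depended on the scaling. In mesocarp FUL2 fell by 0.34 (log2, SE 0.08, edgeR adjusted p = 0.00579). The red exocarp level exceeded that of red mesocarp by 0.62 (log2, SE 0.08, edgeR adjusted p = 0.000463).

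**Figure D2:**
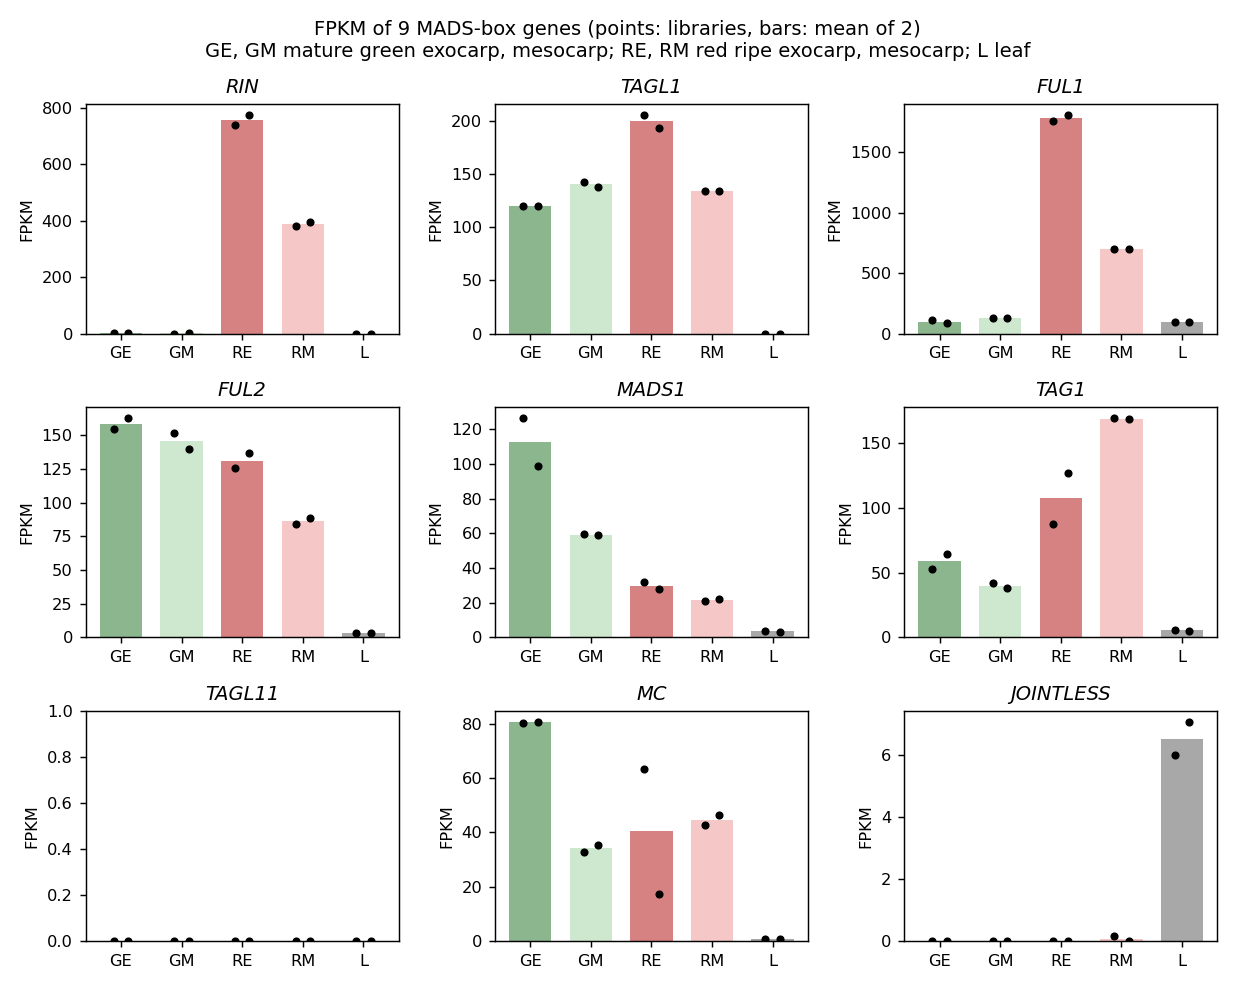
FPKM of each gene in each library, grouped by tissue. The red fruit libraries of RIN and FUL1 lie far above the green ones, FUL2 stays within a narrow range across fruit tissues, and JOINTLESS is above 1 FPKM only in leaf.

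TAGL1, which acts in fleshy fruit expansion and in ripening, was present in all fruit tissues and nearly absent from leaf. Its CPM was 137 and 142 in green exocarp, 152 and 148 in green mesocarp, 297 and 282 in red exocarp, 193 and 192 in red mesocarp, and 0.16 and 0 in leaf. Both red exocarp libraries were above every other library. TAGL1 rose by 1.05 (log2, SE 0.14, edgeR adjusted p = 0.000234) in exocarp. In mesocarp the value of 0.36 (SE 0.14) did not pass (edgeR adjusted p = 0.0566), and with total counts it was −0.03, while it passed in the fit of the compared tissues alone (0.36, adjusted p = 7.74e-05) and in DESeq2 (0.31, adjusted p = 1.02e-05). The red exocarp level was higher than that of red mesocarp by 0.59 (log2, SE 0.14, edgeR adjusted p = 0.0117), a call that was lost without red mesocarp replicate 1 (0.60, adjusted p = 0.0819) or replicate 2 (0.58, adjusted p = 0.085).

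TAG1, the AGAMOUS homologue, was the only member with its highest level in red mesocarp. Its CPM was 235 and 232 in red mesocarp, 121 and 179 in red exocarp, 57.9 and 73.6 in green exocarp, 43.4 and 39.0 in green mesocarp, and 7.87 and 7.0 in leaf. No library of 1 tissue overlapped those of the next tissue in this order, although the red exocarp replicates were spread widely. TAG1 rose with ripening by 2.50 (log2, SE 0.19, edgeR adjusted p = 7.42e-06) in mesocarp and by 1.19 (SE 0.18, adjusted p = 0.000467) in exocarp. The exocarp value relative to mesocarp was 0.67 (log2, SE 0.18, edgeR adjusted p = 0.0199) in green fruit and −0.64 (SE 0.18, adjusted p = 0.0227) in red fruit. The green call was lost without green exocarp replicate 2 (0.49, adjusted p = 0.0777), green mesocarp replicate 1 (0.75, adjusted p = 0.0657) or replicate 2 (0.60, adjusted p = 0.119), and the red call without red exocarp replicate 1 (−0.38, adjusted p = 0.0885), red mesocarp replicate 1 (−0.63, adjusted p = 0.0937) or replicate 2 (−0.65, adjusted p = 0.0792).

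TAGL11, known for ovule and seed development, had no count in any of the 10 libraries. A count of 0 allows a level of up to 3 counts, which is between 0.0657 and 0.0969 CPM by library total. It was the only member that did not pass the filter on low counts, so 8 members were tested.

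MADS1, the SEPALLATA-type gene described as a ripening repressor, was highest in the green exocarp. Its CPM was 150 and 121 in green exocarp, 66.0 and 65.5 in green mesocarp, 47.8 and 41.8 in red exocarp, 31.4 and 33.1 in red mesocarp, and 5.69 and 4.65 in leaf. The tissues followed each other in this order without overlap. MADS1 fell with ripening by 1.60 (log2, SE 0.12, edgeR adjusted p = 7.84e-06) in exocarp and by 1.03 (SE 0.12, adjusted p = 0.000135) in mesocarp. The exocarp level exceeded that of mesocarp by 1.04 (log2, SE 0.12, edgeR adjusted p = 0.000318) in green fruit and by 0.48 (SE 0.12, adjusted p = 0.0173) in red fruit. The red call was lost without red exocarp replicate 1 (0.38, adjusted p = 0.093), red mesocarp replicate 1 (0.44, adjusted p = 0.1) or replicate 2 (0.51, adjusted p = 0.0623).

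MC, a relative of the FRUITFULL and APETALA1 genes, had red exocarp replicates that lay far apart. Its CPM was 104 and 108 in green exocarp, 39.6 and 43.2 in green mesocarp, 104 and 28.7 in red exocarp, 70.0 and 75.4 in red mesocarp, and 1.32 and 1.0 in leaf. Red exocarp replicate 1 lay at the green exocarp level and replicate 2 under both mesocarp tissues, a difference of 3.62 times, while the other tissues' replicates were at most 1.30 times apart. The red exocarp value relative to red mesocarp was −0.13 (log2, SE 0.45, edgeR adjusted p = 0.881), and it was −1.34 (adjusted p = 0.000238) without red exocarp replicate 1 and 0.52 (adjusted p = 0.011) without replicate 2. The change with ripening was −0.68 (SE 0.45, edgeR adjusted p = 0.222) in exocarp, and it was −1.89 (adjusted p = 1.27e-05) without red exocarp replicate 1 and −0.03 (adjusted p = 0.876) without replicate 2. In mesocarp it was 0.81 (SE 0.45, edgeR adjusted p = 0.155), which passed in 1 of the 8 other settings, the fit of the compared tissues alone (0.81, adjusted p = 9.11e-07). In green fruit the exocarp level exceeded that of mesocarp by 1.36 (log2, SE 0.46, edgeR adjusted p = 0.0473), a call lost in 5 of the 8 other settings (adjusted p from 0.0508 to 0.0839 in these) and whichever of the 4 green fruit libraries was left out (1.30 to 1.42, adjusted p from 0.0599 to 0.191).

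JOINTLESS was a leaf transcript among these tissues. It had 225 and 254 counts in the leaf libraries, which is 7.23 and 8.55 CPM, 8 and 0 counts in red mesocarp, and no count in the other 6 fruit libraries. Measured against the mean floor of 3 counts per library, leaf was at least 112-fold higher than green exocarp, at least 99.1-fold higher than green mesocarp and at least 91.4-fold higher than red exocarp. Against red mesocarp the ratio of means was 82.5, where the 8 counts of replicate 1 alone set the fruit value.

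Ripening in the exocarp was examined across the members by comparing red with green exocarp. Of the 8 tested, RIN, FUL1, TAG1 and TAGL1 rose and MADS1 fell, so 4 were higher, where 29.7% of all genes tested were higher, and 1 was lower, where 32.2% were lower. In mesocarp RIN, FUL1 and TAG1 rose and FUL2 and MADS1 fell, giving 3 higher against 28.2% of all genes and 2 lower against 31.8%. JOINTLESS counts among the 8 but had no count in 3 of the 4 fruit tissues, and the median log2 fold change of the other 7 was 1.05 in exocarp and 0.81 in mesocarp, beside medians over all genes of 0 and −0.02. All 5 calls in each layer were kept whichever of the 4 libraries compared was left out. In limma on log2(FPKM + 0.1) the TAGL1 rise in exocarp did not pass (0.73, adjusted p = 0.0511).

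**Figure D3:**
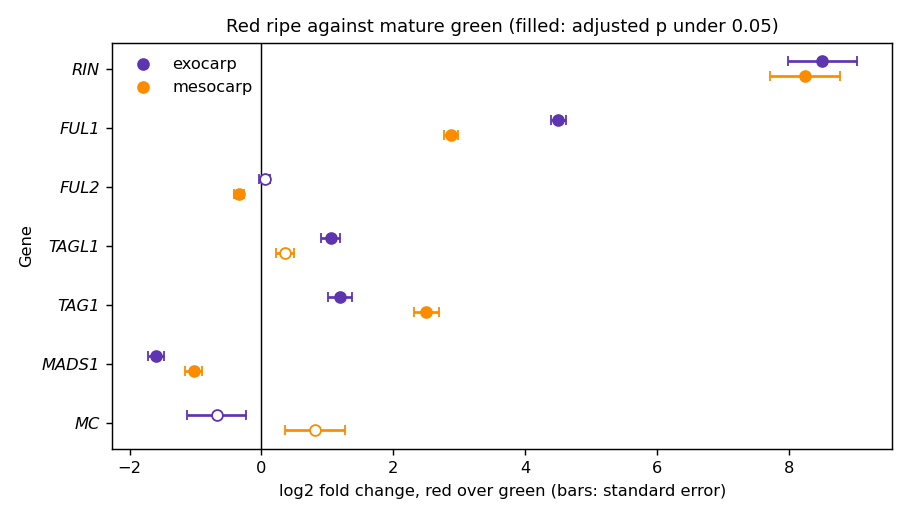
log2 fold change from mature green to red ripe (horizontal axis) in exocarp and in mesocarp for the 7 members with counts in every fruit tissue, with bars of 1 standard error and filled points for adjusted p under 0.05. RIN stands at 8.51 and 8.25, FUL1 at 4.50 and 2.87, and MADS1 lies to the left of 0 in both layers.

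The difference between skin and flesh was examined at each stage. In green fruit FUL2, MADS1, TAG1 and MC were higher in exocarp, which is 4 of 8 tested where 17.3% of all genes were higher, and 0 were lower where 19.0% were lower. At an unadjusted p under 0.05 in edgeR 1 member, FUL1, was lower, DESeq2 and limma on log2(FPKM + 0.1) called the same 1 lower, and limma on log2(FPKM + 1) called 2, FUL1 and TAGL1. In red fruit TAGL1, FUL1, FUL2 and MADS1 were higher in exocarp, 4 of 8 where 18.1% of all genes were higher, and TAG1 was lower, 1 of 8 where 19.4% were lower. FUL2 and MADS1 were thus called higher in exocarp at both stages. In green fruit only MADS1 kept its call whichever library was left out, and the FUL2 call (0.24, SE 0.08, edgeR adjusted p = 0.0431) did not pass under any of the 8 other settings (adjusted p from 0.0512 to 0.244) and was lost without green exocarp replicate 2 (0.18, adjusted p = 0.148), green mesocarp replicate 1 (0.30, adjusted p = 0.0706) or replicate 2 (0.18, adjusted p = 0.221). In red fruit FUL1 and FUL2 kept theirs.

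**Figure D4:**
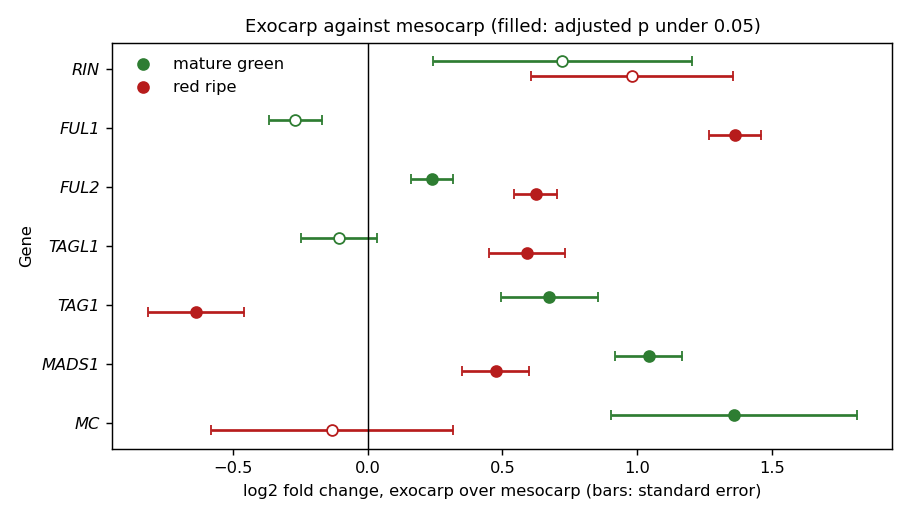
log2 fold change of exocarp over mesocarp (horizontal axis) in mature green and in red ripe fruit for the same 7 members, with bars of 1 standard error and filled points for adjusted p under 0.05. FUL1 goes from −0.27 in green to 1.36 in red fruit, and TAG1 from 0.67 to −0.64.

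Whether ripening changed a gene by a different amount in skin and flesh was tested as the exocarp change minus the mesocarp change. FUL1 rose more in exocarp, by 1.63 (log2, SE 0.14, edgeR adjusted p = 0.000165), and TAG1 rose more in mesocarp, with a difference of −1.31 (SE 0.25, adjusted p = 0.00814). The difference was 0.70 (SE 0.20, adjusted p = 0.0404) for TAGL1 and 0.38 (SE 0.11, adjusted p = 0.0416) for FUL2. These made 3 members of 8 with a higher value, where 10.9% of all genes had one, and 1 with a lower value, where 10.5% did. MADS1 had −0.57 (SE 0.17, edgeR adjusted p = 0.0516). In edgeR it passed with DESeq2 size factors (−0.56, adjusted p = 0.0468), the replicate block (−0.56, adjusted p = 0.0386) and the compared tissues alone (−0.57, adjusted p = 0.0426). It also passed in DESeq2 (−0.56, adjusted p = 0.0222). TAGL1 kept its call in 6 of the 8 other settings and FUL2 in 5.

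The FUL1 and TAG1 differences passed whichever of the 8 fruit libraries was left out. The TAGL1 difference did not pass without either mesocarp library of either stage or either red exocarp library (0.66 to 0.73, edgeR adjusted p up to 0.143), and that of FUL2 did not pass without any of the 4 mesocarp libraries, red exocarp replicate 2 or green exocarp replicate 1 (0.31 to 0.44, p up to 0.137). The RIN value was 0.26 (SE 0.61, edgeR adjusted p = 0.876), with 0.97 (adjusted p = 0.0294) without green mesocarp replicate 1 and −1.21 (adjusted p = 0.0275) without replicate 2. MC had −1.49 (SE 0.64, adjusted p = 0.14), and −2.70 (adjusted p = 9.98e-05) without red exocarp replicate 1 or −0.84 (adjusted p = 0.00817) without replicate 2.

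Fruit was then compared with leaf. In green exocarp 6 of 8 members were higher than in leaf, where 34.6% of all genes were, and 2 were lower, where 36.4% were. In green mesocarp the numbers were 6 higher against 32.7% and 1 lower against 35.8%. In red exocarp 7 were higher against 35.7% and 1 lower against 40.2%, and in red mesocarp 7 were higher against 35.0% and 1 lower against 41.6%. The lower member was JOINTLESS in each case, joined in green exocarp by FUL1.

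FUL1 was the one fruit-expressed member whose green fruit levels were near that of leaf. Its log2 fold change over leaf was −0.30 (SE 0.10, edgeR adjusted p = 0.0233) in green exocarp, −0.03 (SE 0.10, adjusted p = 0.814) in green mesocarp, 4.21 (SE 0.11, adjusted p = 1.27e-08) in red exocarp and 2.85 (SE 0.10, adjusted p = 5.81e-08) in red mesocarp. With total counts the first was 0.0017 and the second 0.39 (adjusted p = 0.00952), so neither green direction held under that scaling, and the green exocarp call was also lost without green exocarp replicate 2 (−0.16, adjusted p = 0.0819), leaf replicate 1 (−0.31, adjusted p = 0.0681) or leaf replicate 2 (−0.28, adjusted p = 0.0924). FUL2 exceeded leaf by 4.79 to 5.41 (log2) over the 4 fruit tissues, MADS1 by 2.64 to 4.71, TAG1 by 2.47 to 4.97 and MC by 5.15 to 6.51. The MC value in red exocarp, 5.83, was 4.62 without red exocarp replicate 1 and 6.47 without replicate 2.

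RIN exceeded leaf by 3.27 (log2) in green mesocarp and by 12.50 in red exocarp, against leaf libraries with 5 and 11 counts. The green mesocarp value was 3.98 without green mesocarp replicate 1, 1.80 without replicate 2 and 3.97 without leaf replicate 2, and in limma on log2(FPKM + 1) it was 1.15. The red exocarp value was 13.20 without leaf replicate 2, and 9.41 in that limma fit. For TAGL1 the leaf level rests on 5 counts in all.

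A further list of 15 MADS-box genes, compiled by identifier from general knowledge and unnamed in the files, was compared with the members. Of its 13 tested genes, 7 in exocarp and 9 in mesocarp had a mean level above the floor of 3 counts at either stage, and the others were at or under it at both. Of the 7 in exocarp, 0 were called higher and 3 lower in red than in green fruit, where 29.7% of all genes tested were higher and 32.2% lower. Of the 9 in mesocarp, 0 were higher and 5 lower, where 28.2% and 31.8% of all genes were. Their median log2 fold changes were −0.50 and −0.60. Over all 13 tested the medians were 0 and −0.02, with the same calls. The shares of all genes were not limited to genes above the floor. None was higher at an unadjusted p under 0.05 in edgeR either, a count of 0 in both layers, and DESeq2 and both limma fits also called 0 higher. The list's most abundant gene by FPKM, Solyc02g089200, had mean TMM-normalized CPM of 420 in green exocarp, 474 in green mesocarp, 423 in red exocarp, 468 in red mesocarp and 1.68 in leaf. Its change with ripening was 0.01 (log2, SE 0.10, edgeR adjusted p = 0.979) in exocarp and −0.02 (SE 0.10, adjusted p = 0.912) in mesocarp. Mean FPKM went from 348 to 281 in exocarp and from 427 to 314 in mesocarp, so the flat result depended on the scaling. Solyc02g084630 fell with ripening by 3.67 in exocarp (SE 0.11, edgeR adjusted p = 4.7e-08) while its mesocarp value was −1.87 (SE 0.10, adjusted p = 1.1e-06). Its difference between the layers was −1.79 (SE 0.14, edgeR adjusted p = 0.000134). Of the 13 tested, 1 gene had a higher value in that test and 2 a lower one, beside 10.9% and 10.5% of all genes. The higher one was Solyc03g006830, at 3.30 (SE 0.59, edgeR adjusted p = 0.0058). The other lower one was Solyc04g081000, at −6.31 (SE 1.44, edgeR adjusted p = 0.0206). It had only 9 and 13 counts in green exocarp and no count in red exocarp, so the size of that value is not measured.

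A list of 13 genes of ripening, compiled the same way from reported RIN targets and partners in ripening control, was higher in red fruit throughout. All 13 were higher in red than in green fruit in both layers, where 29.7% of all genes were higher in exocarp and 28.2% in mesocarp, with a median log2 fold change of 8.82 in exocarp and 6.73 in mesocarp. The list was chosen as ripening genes and holds the 3 ripe-fruit markers. This rise was therefore largely built into the choice and is no separate result. The exocarp change exceeded the mesocarp change in 9 and was smaller in 2, beside 10.9% and 10.5% of all genes. Several of the 9 rested on few green exocarp counts, such as Solyc10g080210 (33 and 22), Solyc09g089580 (10 and 11) and Solyc01g095080 (0 and 0). The sizes of such differences are therefore uncertain. In green fruit 3 were higher and 7 lower in exocarp than in mesocarp, beside 17.3% and 19.0% of all genes.

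The green mesocarp replicates differed in RIN by 4.55 times, and the genes of the ripening list were higher in the same replicate, most of them by less and some only marginally. RIN had 35 counts in replicate 1 and 158 in replicate 2. All 13 genes of the ripening list had a higher CPM in replicate 2, by 1.00 to 33.8 times, with a median log2 ratio of 0.37. The smallest ratio came from a gene with 532 counts in replicate 1 and 528 in replicate 2, which is practically level. The largest came from a gene with 2 and 67 counts. Its replicate 1 count lies under the floor used here, so the size of that ratio is not measured. The most abundant gene of the list in ripe fruit, Solyc10g080210, had 154 counts in replicate 1 and 2628 in replicate 2. In green exocarp, where RIN had 182 and 179 counts, 2 of the 13 were higher and 9 lower in replicate 2. The share of all genes that were higher in replicate 2 is not given here, so these counts have no background beside them. The part of these replicate differences in the RIN results that rest on 1 green mesocarp library was not tested.

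**Figure D5:**
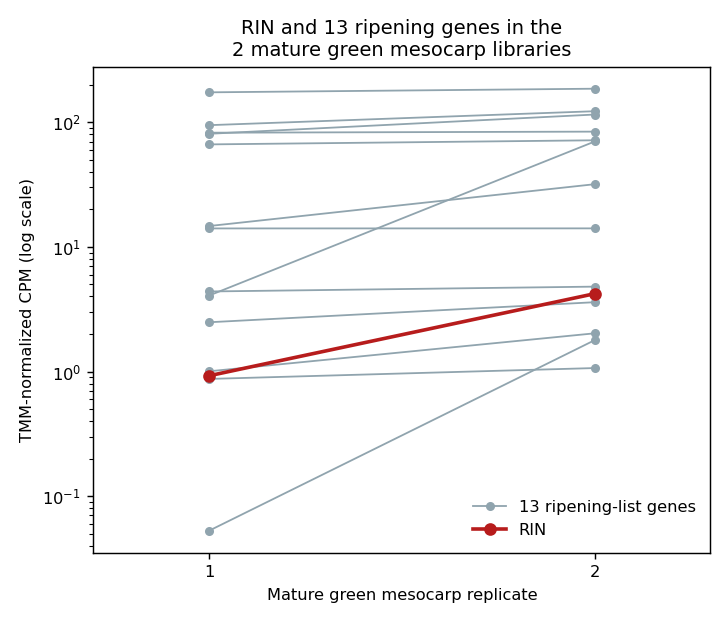
TMM-normalized CPM (log axis) of RIN (red) and of the 13 genes of the ripening list (grey) in the 2 mature green mesocarp libraries, with a line joining the values of 1 gene. RIN goes from 0.92 in replicate 1 to 4.21 in replicate 2, and no grey line goes down.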

How the data were processed

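Total RNA was extracted from 5 tissues with 2 replicates each, poly(A) mRNA was sequenced, and a company did the first analysis. The authors deposited raw counts per gene and FPKM values of the same genes. The processing notes name HISAT2; the counting tool, genome build, annotation and treatment of reads that match several genes are not given in the sources used here, so close relatives such as FUL1 and FUL2 or TAG1 and TAGL1 may share reads. Tissue and replicate came from the sample labels (the design text lists green exocarp in place of green mesocarp).

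Counts were filtered with filterByExpr, which kept 22801 of 35288 genes, scaled by TMM and fitted with edgeR 4.0.16 (R 4.3.3), with all 10 libraries in 1 quasi-likelihood model that left 5 residual degrees of freedom. P-values were adjusted over all genes by the Benjamini-Hochberg method and called under 0.05. Standard errors were the absolute log2 fold change over the square root of F. With 2 libraries against 2 an exact permutation test cannot go below p = 0.333, so none is given. Levels at 0 were bounded by 3 counts, which covers counting error only.

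The members, lists and tests were chosen with earlier results of these data known. All 9 members are named, and of each list at most 4 genes, those with the highest mean FPKM or called in the test of the layer difference. Alternatives were DESeq2 1.42.0, its size factors, total counts, no low-count filter, the compared tissues alone, a replicate block, limma 3.58.1 on log2(FPKM + 1) and log2(FPKM + 0.1), a threshold of 0.01, and each library left out. Sequences were not used here.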

Additional observations from a re-analysis of the deposited data

Results flagged for a closer look

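For 4 genes the change with ripening differed between exocarp and mesocarp by a test of the difference itself (quasi-likelihood F test of edgeR, Benjamini-Hochberg adjusted). The exocarp change minus the mesocarp change was 1.63 (log2) for FUL1, −1.31 for TAG1, 0.70 for TAGL1 and 0.38 for FUL2, with adjusted p-values of 0.000165, 0.00814, 0.0404 and 0.0416. FUL1 and TAG1 passed whichever of the 8 fruit libraries was left out, while TAGL1 and FUL2 each passed in 2 of these 8 fits.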

How the results depend on the processing

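With 2 libraries per tissue, a fit without 1 library leaves a lone library that is assumed to vary like the other tissues. The number of members called went from 4 to 1 for green exocarp against green mesocarp, from 5 to 2 for red exocarp against red mesocarp and from 4 to 2 for the layer difference at an adjusted p under 0.01. With a library left out these ranged from 1 to 4, from 2 to 6 and from 2 to 5. Deviations of same-numbered libraries correlated between −0.0475 and 0.0645 over the genes tested. This showed no sign of pairing by replicate number but cannot exclude it, and the labels do not state it. With the replicate block 2 members were called for green exocarp against green mesocarp, where FUL2 and MC did not pass (edgeR adjusted p = 0.0574 and 0.0515). For the layer difference TAGL1 and FUL2 then did not pass (adjusted p = 0.0585 and 0.0546) and MADS1 did (−0.56, adjusted p = 0.0386), and the block changed no other call. The other 6 counts stayed within 1.5 times under every setting run. The shares of all genes called under these settings are not given here, so these counts of members have no background beside them. Directions turned for FUL2 in red against green exocarp (−0.27 with total counts and in limma on log2(FPKM + 1) and log2(FPKM + 0.1), all called), for TAGL1 in red against green mesocarp (−0.034 with total counts, −0.065 and −0.066 in the limma fits), for FUL1 in green exocarp against leaf (0.0017 with total counts, 0.0072 in both limma fits) and for FUL1 in green mesocarp against leaf (0.39 with total counts, 0.0052 with the compared tissues alone, 0.40 in both limma fits). Leaving out a library turned MC in red exocarp against mesocarp (−1.34 to 0.52), FUL2 in red against green exocarp (−0.023 to 0.12) and the RIN layer difference (−1.21 to 0.97). JOINTLESS in red mesocarp against leaf did not pass in DESeq2 (adjusted p = 0.191). Of the values of single genes, 486 kept their direction and side of the threshold under other settings, 21 no longer passed, 16 came to pass and 13 turned. With a library left out the numbers were 251, 33, 8 and 4. The causes were not tested.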
